A study of Homo sapiens with 4 samples.

Results

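The Fanconi anemia core complex was examined through its 10 genes on the human arrays, chosen by the gene name that the array design gives each probe: FANCA, FANCB, FANCC, FANCE, FANCF, FANCG, FANCL, FANCM, C17orf70 (now FAAP100) and C19orf40 (now FAAP24). They are 10 of 27193 gene names with a probe, and they have 14 probes, which are shown apart. FANCA has 3 probes, FANCF and FANCL have 2 each, and the other 7 genes have 1. The arrays compared 2 control samples of MCF10A.B2 cells with 2 samples of MCF10A.B2 cells carrying a shRNA against PAK1, a kinase activated by the GTPases Rac and Cdc42. MCF10A is a non-tumorigenic mammary epithelial line, and MCF10A.B2 cells carry a chimeric ErbB2 (Her2) receptor that the crosslinker AP1510 activates. All 4 samples were starved of serum for 3 h and given AP1510 for 15 min before RNA was taken. The shRNA is tetracycline inducible, but the sample labels state neither induction nor how the replicates were obtained, so p-values measure only the spread between these samples. The labels describe the control cells as wild type for PAK1, and the methods name them as MCF10A.B2 cells without mention of a shRNA. Arrays of a non-targeting shRNA were not analysed. The series text speaks of cells from tumors, whereas the sample labels name the cell line, and the labels were followed.

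The core complex is a ubiquitin ligase that works when DNA is crosslinked between its strands. FANCM, a DNA translocase, and its partner FAAP24 hold the complex on DNA. FANCL, the RING ligase, works with FANCB and FAAP100, and with the conjugating enzyme UBE2T it places a ubiquitin on FANCD2 and FANCI. FANCA and FANCG, bound by FAAP20, and FANCC, FANCE and FANCF form the other building blocks, in which FANCF is an adaptor and FANCE contacts FANCD2. Inherited loss of most core members, such as FANCA, FANCC or FANCG, causes Fanconi anemia, with bone marrow failure and cells that break their chromosomes after crosslinkers.

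Probes of the core complex are oligonucleotides of 60 bases, and a change is that of the stretch of transcript a probe reads. The 3 FANCA probes are shown because they read places far apart along the gene, and the 2 FANCL probes because their changes differed. Bases 31 to 60 of each are given in the sense of the transcript, with a polyadenylation hexamer (AATAAA) in capitals.
FANCA probe 1: ctgctttatacactgtcacgtggcttcatc
FANCA probe 2: acagtgAATAAAgcactgtgtgatttcctg
FANCA probe 3: ttccttctgtcaagaattatggaaaataca
FANCL probe 1: ttctgtcttctccttgtgctttcctatgga
FANCL probe 2: taacatcatatttggtgaatgtccatattg
The FAAP24 probe is given whole, since its signal decides whether this gene can be measured at all. The scanner files place it on chromosome 19 from 33464453 to 33465009 (hg19), a span longer than the probe.
FAAP24 probe: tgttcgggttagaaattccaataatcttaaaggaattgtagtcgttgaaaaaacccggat
All probe positions use hg19 as the scanner files do. No annotation of that build was used here, so exons, introns and UTRs are not named.

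In PAK1 shRNA cells, 12 of the 14 core complex probes were lower than in control cells and none was higher. The FAAP24 probe passed the filter only through the control group, which favours a fall. Without the FAAP24 probe, 11 of 13 probes were lower. All 9 genes of these 13 probes had at least 1 lower probe, and 7 of them were lower in every probe they have. FANCA, FANCG, FANCC, FANCB and FANCE fell by more than 2-fold, while FANCF, FANCM, FANCL and FAAP100 fell by less. FAAP24 was not well above background in PAK1 shRNA cells, which leaves only a lower bound on its fall. The tests were limma's moderated tests over all probes, with a Benjamini-Hochberg adjusted p under 0.05 as the threshold. These counts read against a background of many changes. Of 27394 probes tested, 17409 (63.6%) passed, 8903 (32.5%) of them lower and 8506 (31.1%) higher in PAK1 shRNA cells. A fall of at least 2-fold was called in 8.78% of all probes and in 7 of the 14 core complex probes. The median log2 fold change was -1.19 for the 14 probes and -1.48 without FAAP24, and over all probes tested it was 0.01. In all 13 probes other than that of FAAP24, both PAK1 shRNA arrays lay below both control arrays. Of all probes measured on 4 arrays, 40.5% showed this order and 41.7% the reverse. With 2 arrays a group, an exact permutation test of a single probe cannot give a p below 0.333.

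**Figure D1:**
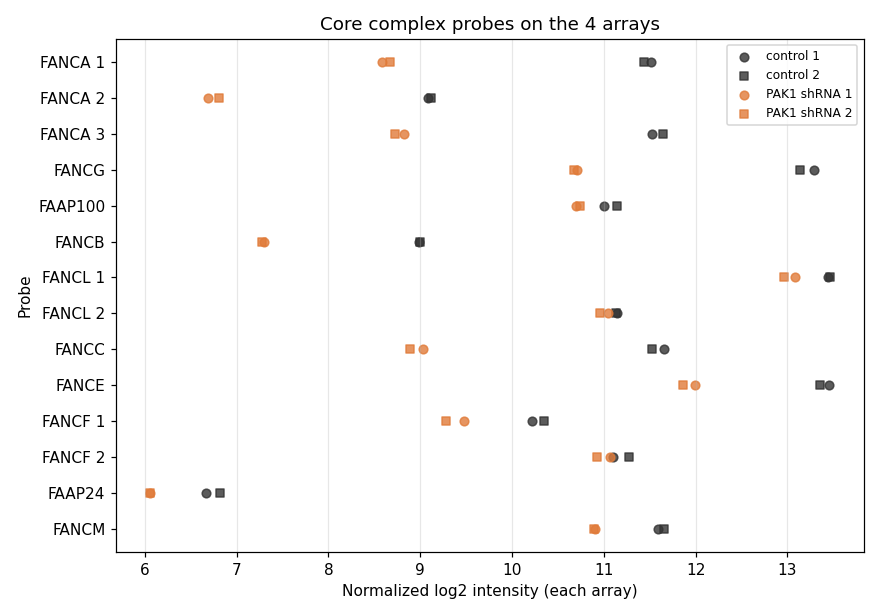
Normalized log2 intensity (horizontal axis) of each core complex probe (rows) on each array, control in grey and PAK1 shRNA in orange. In all 14 rows the PAK1 shRNA arrays lie to the left of the control arrays, although FAAP24 passed the filter only through the control group. The gap is wide for FANCA, FANCG and FANCC and is 0.04 for FANCF probe 2. Intensities of different probes cannot be compared.

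The target of the shRNA, read by 1 probe, was lower, as were 32.5% of all probes tested. PAK1 was left at 59.5% of its control level. PAK1 had a normalized log2 intensity of 11.19 and 11.27 in control against 10.44 and 10.52 in PAK1 shRNA cells, a log2 fold change of -0.75 (standard error 0.08, adjusted p = 0.000139 by limma). The scanner called 9 of 10 basal mammary epithelial genes well above background on every array, the exception being LAMB3, which lacked a usable spot on 1 array. This call did not separate cell types, since 5 of 6 leukocyte genes and 6 of 8 luminal genes, ESR1 among them, also had it throughout. Before normalization the control arrays were brighter, with a median spot signal of 501 and 383.5 against 326 and 319.

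FANCA and FANCG, which bind each other, had the steepest falls together with FANCC. FANCA probe 1 (chromosome 16, 89804013 to 89804072) read 11.52 and 11.44 in control cells against 8.58 and 8.67 in PAK1 shRNA cells, in normalized log2 intensity. The groups were apart by 2.76, far more than the arrays of a group differed. The change was -2.85 on the log2 scale (standard error 0.08, adjusted p = 5.15e-07), which leaves 13.9% of the control level (95% interval 12.2% to 15.8%). This probe is spotted 10 times on each array, and the standard deviation over its spots was 0.12 to 0.15, so the highest spot on any PAK1 shRNA array, at 8.88, was below the lowest on any control array, at 11.20.
The other FANCA probes lie 60754 and 73103 bases away and are assigned by the array design to another FANCA transcript. FANCA probe 2 read 9.09 and 9.11 in control and 6.69 and 6.81 in PAK1 shRNA cells, a log2 fold change of -2.35 (standard error 0.08). FANCA probe 3 read 11.52 and 11.65 against 8.83 and 8.72, a log2 fold change of -2.81 (standard error 0.08). Probes 1 and 3, the farthest apart, gave changes within 0.04 of each other. Probe 2 is dim in PAK1 shRNA cells, at 1.88 and 2.12 times its local background, and among the FANCA probes its log2 fold change moved most with the processing, from -3.58 with the scanner's processed signal to -1.43 with normexp fitted on all spots.
FANCG, a scaffold of repeated helical motifs, read 13.28 and 13.14 in control cells against 10.71 and 10.68 in PAK1 shRNA cells (chromosome 9, 35073935 to 35073994). FANCG thus changed by -2.52 on the log2 scale (standard error 0.08, adjusted p = 9.1e-07), or 17.4% of the control level (95% interval 15.2% to 19.9%). Its raw signal stayed at least 27.2 times the local background on every array, so the fall of FANCG was measured well clear of background in both groups.

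Within the block of FANCC, FANCE and FANCF the falls were unequal. FANCC read 11.66 and 11.53 in control and 9.03 and 8.89 in PAK1 shRNA cells (chromosome 9, 97861522 to 97861581), a log2 fold change of -2.63 (standard error 0.09, adjusted p = 1.04e-06). FANCE read 13.45 and 13.35 against 11.998 and 11.857 (chromosome 6, 35434765 to 35434824), a log2 fold change of -1.48 (standard error 0.09, adjusted p = 9.75e-06). The level left was 16.2% of control for FANCC (95% interval 14.0% to 18.7%) and 35.9% for FANCE (95% interval 31.2% to 41.4%), and these intervals do not overlap. The difference between the genes was not tested itself.
FANCF, the adaptor of the complex, gave a divided reading. FANCF probe 1 read 10.22 and 10.35 in control cells against 9.48 and 9.28 in PAK1 shRNA cells, a log2 fold change of -0.91 (standard error 0.10, adjusted p = 0.000163). FANCF probe 2, which lies 1500 bases away, read 11.10 and 11.28 against 11.07 and 10.93, a log2 fold change of -0.19 (95% interval -0.41 to 0.03, adjusted p = 0.113). Control replicate 1 and PAK1 shRNA replicate 1 were nearly equal in probe 2. Which probe stands for FANCF therefore decides the call. With the brighter probe of each gene tested alone, 9 of the 10 genes passed and FANCF did not. The 9 include FAAP24, which passed the filter only through the control group.

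The ligase block was split as well. FANCB, an X-linked subunit, fell more than its partners did. It read 8.988 and 8.997 in control and 7.30 and 7.28 in PAK1 shRNA cells (chromosome X, 14862037 to 14862096), a log2 fold change of -1.71 (standard error 0.07, adjusted p = 2.52e-06), or 30.6% of the control level. The FANCB change was -2.29 with the scanner's processed signal and -1.07 with normexp fitted on all spots.
FANCL, the ligase itself, changed little. FANCL probe 1 (chromosome 2, 58386477 to 58386536) read 13.44 and 13.46 in control cells against 13.09 and 12.96 in PAK1 shRNA cells, a log2 fold change of -0.43 (standard error 0.08, adjusted p = 0.00265). FANCL probe 2, which lies 773 bases away and is assigned to another transcript, read 11.14 and 11.13 against 11.04 and 10.96, a log2 fold change of -0.14 (95% interval -0.32 to 0.04, adjusted p = 0.148). The probes put the FANCL level at 74.3% and 90.8% of control.
FAAP100, the partner of FANCB and FANCL, read 11.00 and 11.15 in control and 10.70 and 10.74 in PAK1 shRNA cells (chromosome 17, 79507398 to 79507457). The FAAP100 change was -0.35 on the log2 scale (standard error 0.08, adjusted p = 0.00833), or 78.5% of the control level (95% interval 68.5% to 90.0%). The intervals of FANCL probe 1 and FAAP100 overlap each other, and neither reaches that of FANCB. By the unpaired t-test on the same values FANCL probe 1 (adjusted p = 0.0516) and FAAP100 (adjusted p = 0.0846) no longer passed.

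FANCM, the translocase, fell by less than 2-fold. It read 11.59 and 11.65 in control cells against 10.90 and 10.89 in PAK1 shRNA cells (chromosome 14, 45669210 to 45669269), a log2 fold change of -0.73 (standard error 0.07, adjusted p = 0.000131), or 60.5% of the control level (95% interval 53.6% to 68.3%). FANCM was called under each of the 16 alternatives that gave it a value, from -0.83 to -0.66.
FAAP24, the partner of FANCM, was near the limit of detection. Its probe read 6.67 and 6.82 in control and 6.06 and 6.06 in PAK1 shRNA cells, and it was well above background on both control arrays and on neither PAK1 shRNA array. The raw signal was 2.23 and 2.22 times the local background in control and 1.13 and 1.15 times in PAK1 shRNA cells. With the processing used here FAAP24 was at least 1.47-fold lower in PAK1 shRNA cells, taking as the dim level the higher of its own value and the lowest signal well above background on that array. The bound does not carry over to other settings. The fit gave a log2 fold change of -0.69 (adjusted p = 0.000299), against -0.35 with normexp fitted on all spots, -0.36 with median centring, -1.16 with an offset of 16 and -3.36 with the scanner's processed signal.

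**Figure D2:**
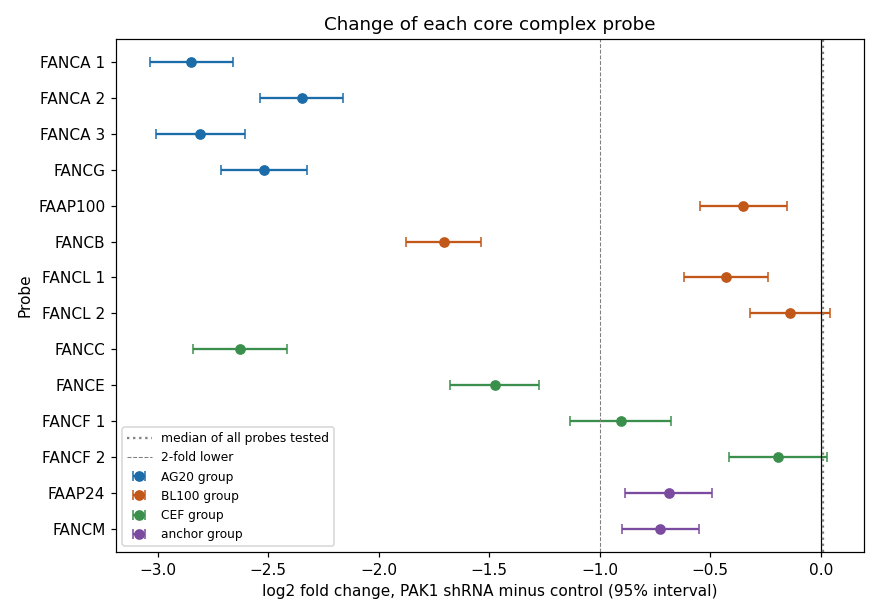
Log2 fold change (PAK1 shRNA minus control, horizontal axis) of each core complex probe (rows) with its 95% interval from limma, coloured by building block: FANCA and FANCG (AG20), FANCB, FANCL and FAAP100 (BL100), FANCC, FANCE and FANCF (CEF), and FANCM and FAAP24 (anchor). FANCA, FANCC and FANCG lie between -2.85 and -2.35, FANCB and FANCE lie between -1.71 and -1.48, and the remaining probes lie between -0.91 and -0.14. FAAP24 is drawn at its fitted value, although its signal in PAK1 shRNA cells gives only a bound.

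Ordered by size, the changes of the 13 probes well above background on all 4 arrays fell into 3 runs with the processing used here, and FAAP24 has no place in the order. The 3 FANCA probes, FANCC and FANCG ran from -2.85 to -2.35, and each interval overlapped the next. FANCB and FANCE followed at -1.71 and -1.48, and their intervals overlapped each other but neither the run above nor the one below. The others ran from -0.91 for FANCF probe 1 to -0.14 for FANCL probe 2, again with each interval overlapping the next. The runs cut across the building blocks, since FANCC and FANCF share a block, as do FANCB and FANCL. The runs rested on the background correction for the dim probes. With normexp fitted on all spots FANCA probe 2, at -1.43, was level with FANCE, at -1.42, and FANCB was at -1.07. With the scanner's processed signal FANCB, at -2.29, was next to FANCG, at -2.53. The offset of 50 added to every corrected signal compresses the changes of dim probes, and with an offset of 16 the median of the 14 was -1.32.

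Proteins that bind the core complex differed among themselves. APITD1 (now CENPS) and STRA13 (now CENPX) form the histone fold pair that binds DNA together with FANCM. APITD1 read 11.83 and 11.99 in control and 9.52 and 9.21 in PAK1 shRNA cells, a log2 fold change of -2.54 (standard error 0.12, adjusted p = 3.96e-06). STRA13 read 14.16 and 14.15 against 11.69 and 11.60, a log2 fold change of -2.51 (standard error 0.08, adjusted p = 6.98e-07). Both fell further than FANCM, and their intervals do not reach that of FANCM. C1orf86 (now FAAP20), the partner of FANCA, has 4 probes. Of these, 1 was lower at -0.47 (adjusted p = 0.0013 by limma) and 1 was higher at 0.22 (adjusted p = 0.0457 by limma). The other 2 did not pass, at 0.14 and -0.08, the latter well above background on only 1 PAK1 shRNA array. No direction can be given for this gene.

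Beyond the core complex the next steps of the pathway were also mostly lower. UBE2T, the conjugating enzyme that FANCL uses, read 13.97 and 14.17 in control and 10.24 and 10.10 in PAK1 shRNA cells, a log2 fold change of -3.90 (standard error 0.10, adjusted p = 3.46e-07). The enzyme was left at 6.69% of its control level and the ligase, by probe 1, at 74.3%. The list of 22 other pathway genes had 27 probes, of which 21 were lower, 4 were higher and 2 did not pass. Among the lower ones, MAD2L2 lacked a usable spot on 1 PAK1 shRNA array and passed the filter only through the control group. Over all probes tested, 32.5% were lower and 31.1% higher. The median log2 fold change of the list was -1.30. The 4 higher probes were those of BRIP1, a helicase (1.19), MUS81, a nuclease subunit (0.55), and ERCC1, the partner of another nuclease (0.50 and 0.38). These were named after their values were seen. BLM, the helicase of the dissolvasome that FANCM binds, read 11.99 and 11.94 in control and 7.98 and 7.86 in PAK1 shRNA cells (log2 fold change -4.05, standard error 0.08). Of 9 probes for the dissolvasome and RPA, which coats single-stranded DNA, 8 were lower and none was higher, with a median of -1.22.

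Cell cycle genes were lower as well, in a list that, like the lists above, was chosen with earlier results of these data known. All 33 probes of 24 replication and mitosis genes were lower in PAK1 shRNA cells, against 32.5% of all probes tested. Among them, CCNE2 probe 1 passed the filter only through the control group, which favours a fall. It read 7.46 and 7.59 in control against 6.33 and 6.34 in PAK1 shRNA cells. The median log2 fold change of these 33 probes was -3.22, with a range from -5.25 to -0.52. Their mean normalized log2 intensity was 12.45 and 12.53 in control and 9.30 and 9.26 in PAK1 shRNA cells, against 11.05, 11.08, 9.68 and 9.62 for the core complex probes. The part of the cell cycle genes in the falls of the core complex was not tested. In bulk RNA, fewer cells that express a gene and less RNA of it per cell cannot be told apart.

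The core complex genes lie on several autosomes and the X chromosome, and their chromosomal neighbours were read as well. The nearest protein-coding gene on each side of each member in RefSeq, a set chosen after the data were seen, gave 20 genes, of which 16 had 22 probes tested. Of these probes 9 were lower, 7 were higher and 6 did not pass, against 32.5% lower and 31.1% higher over all probes tested. None of the 22 fell by at least 2-fold, against 8.78% of all probes and 7 of 14 in the core complex. ZNF276, which lies beside FANCA, was higher at 0.46, and SPIRE2 on the other side was lower at -0.82. VCP and PIGO flank FANCG, at -0.77 and -0.11 (the latter not past the threshold). MOSPD2, next to FANCB, was higher at 0.27.

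Promoter windows of the members, 250 bases before and 50 after the annotated start (RefSeq, GRCh38.p14), were searched on both strands for letters that E2F factors, cell cycle repressor complexes and NF-Y are known to bind. All 10 members had a window, 11 in all, since FANCC has 2, of which 1 held none of the motifs searched. An E2F motif (TTTCGCGC, TTTGGCGC, TTTCCCGC or TTTGCCGC) was in windows of 2 members, FANCA and FANCC, and in 3.31% of all 35116 windows. FANCG, FANCB and FANCE, which fell by more than 2-fold as well, held none in these windows. The CHR letters (TTTGAA or TTTAAA) were in windows of 2 members, FANCC and FAAP24, and in 24% of all windows. CCAAT was in windows of 4 members, FANCA, FANCF, FANCM and FAAP24, and in 34.6% of all windows. No motif overlapped another, and only exact copies of these letters were counted, so variants of a motif were not seen. FANCL, which changed little, held none of the motifs searched. Neither did FANCB, FANCE and FANCG, which fell by more than 2-fold, nor FAAP100, which fell by less. The windows of FANCA and FANCC, members with an E2F motif, and that of FANCL are given in the direction of transcription with the motifs in capitals.
FANCA promoter, minus strand of chr16:89816598-89816897: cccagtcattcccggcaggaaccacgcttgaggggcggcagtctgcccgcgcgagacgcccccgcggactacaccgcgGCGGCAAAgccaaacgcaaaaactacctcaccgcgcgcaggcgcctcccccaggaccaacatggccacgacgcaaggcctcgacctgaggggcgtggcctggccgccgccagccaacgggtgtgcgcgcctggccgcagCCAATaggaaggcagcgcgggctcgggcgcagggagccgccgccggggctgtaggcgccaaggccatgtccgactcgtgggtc
FANCC promoter, minus strand of chr9:95317660-95317959: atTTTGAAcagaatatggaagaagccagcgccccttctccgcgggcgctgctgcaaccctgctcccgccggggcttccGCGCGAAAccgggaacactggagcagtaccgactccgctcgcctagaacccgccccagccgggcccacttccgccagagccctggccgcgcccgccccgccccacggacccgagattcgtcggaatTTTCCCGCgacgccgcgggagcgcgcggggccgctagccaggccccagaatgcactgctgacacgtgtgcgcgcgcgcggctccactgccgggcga
FANCL promoter, minus strand of chr2:58241276-58241575: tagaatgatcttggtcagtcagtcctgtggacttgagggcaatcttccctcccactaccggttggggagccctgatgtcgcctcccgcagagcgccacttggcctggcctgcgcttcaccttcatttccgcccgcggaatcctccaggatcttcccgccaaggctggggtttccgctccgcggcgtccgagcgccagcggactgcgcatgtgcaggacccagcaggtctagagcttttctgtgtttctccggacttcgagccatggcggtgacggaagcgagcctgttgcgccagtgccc
In FANCA the capitals mark TTTGCCGC on the opposite strand, beginning 172 bases before the start, and CCAAT 33 bases before it. In FANCC they mark TTTGAA 248 bases, TTTCGCGC on the opposite strand 172 bases and TTTCCCGC 46 bases before the start. These matches are descriptions of the sequence, and binding was not measured.

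**Figure D3:**
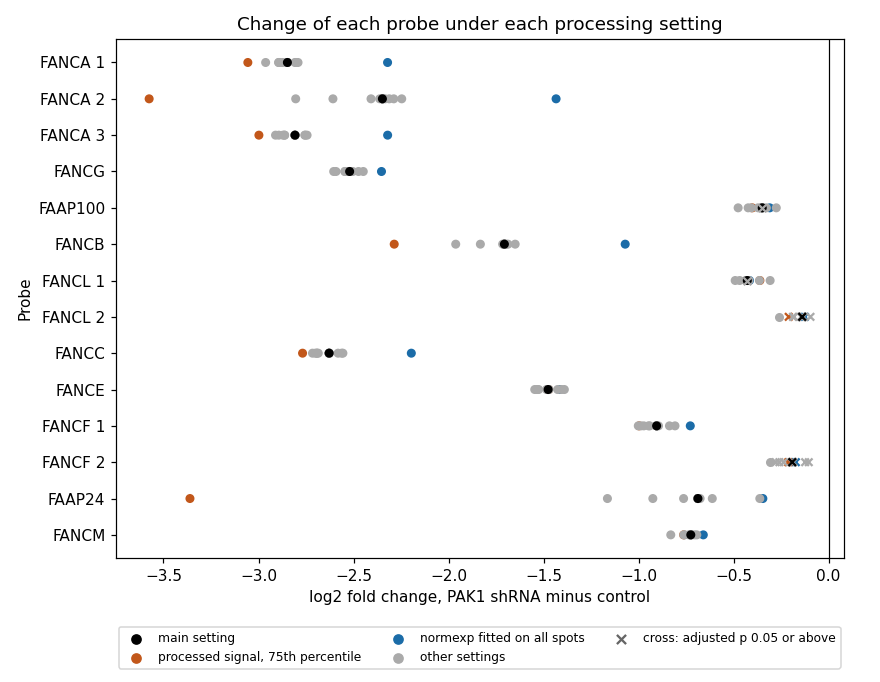
Log2 fold change (PAK1 shRNA minus control, horizontal axis) of each core complex probe (rows) under each processing setting; black points are the values reported, coloured points 2 settings of the background, and crosses values at an adjusted p of 0.05 or above. All points lie left of 0, and FANCA probe 2, FANCB and FAAP24, which are dim in PAK1 shRNA cells, spread widest.

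The median of the 14 probes moved more with the choice of signal and background than with any array left out. Median centring (-1.26) and cyclic loess (-1.14) kept the median within the range over arrays left out. With each array left out in turn, 12 core complex probes were lower each time and the median ran from -1.27 to -1.11, FANCA probe 1 ranged from -2.89 to -2.80 and FANCG from -2.59 to -2.45. With normexp fitted on all spots the median of the 14 probes was -0.90, and with the scanner's processed signal scaled to the 75th percentile, which replaces the quantile normalization too, it was -1.88. All 14 probes had a log2 fold change below 0 under every setting that gave them a value. In the authors' processed values, 12 probes were lower as well, FAAP24 among them, and the median was -1.21.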

How the data were processed

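RNA from 2 control and 2 PAK1 shRNA samples was hybridized in 1 colour to Agilent whole genome arrays, all on 1 slide, which leaves no slide effect to fit. Spot intensity was deposited as written by the scanner software (Agilent Feature Extraction, release 9.5.3.1 per the file headers), without normalization between arrays. They also deposited a table of log2 values for 24302 probes (correlation with the values here at least 0.999 on every array), used as an alternative. Here, mean signals were corrected with normexp on the local background (offset 50), control spots were dropped, arrays were quantile normalized, flagged spots were removed, and repeated spots were averaged by probe. The methods name normexp, quantile normalization and limma. The normexp parameters were fitted without spots of flagged background, since the fit on all spots gave the control arrays a background mean of -666 and -740, against -9.19 and -12.1 without them; these arrays had 8 and 18 spots with a local background above 100, the PAK1 shRNA arrays none. A probe was kept if well above background on each array of either group (27394 had a value in both groups), each probe was tested apart with limma 3.58.1 in R 4.3.3, and p-values were adjusted by Benjamini-Hochberg over all probes. The number of arrays limits the precision. The array design supplied the gene names, and RefSeq the newer ones. The members and lists were chosen with earlier results of these data known. The rule for named genes took all members, PAK1, and list genes that bind the core complex or act right after it. Alternatives covered background, signal, normalization, flags, filter, test, threshold, replicate block, probe choice and each array left out. The moderated test was run on simulated data with known changes in a small share of probes and no normalization step. Changes were far more widespread on these arrays, so that check does not cover their setting.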

Additional observations from a re-analysis of the deposited data

How the results depend on the processing

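Over 14 core complex probes and 223 values under alternatives, 219 stayed on the same side of both 0 and the threshold and none changed sign. FANCL probe 1 (adjusted p = 0.0516) and FAAP100 (0.0846) no longer passed by the unpaired t-test, while FANCF probe 2 (-0.31) and FANCL probe 2 (-0.26) newly passed under median centring, where the median of all probes moved to 0.12. The cause was not tested. FAAP24 was -3.36 with the scanner's processed signal and -0.35 with normexp fitted on all spots. PAK1 was lower and past the threshold under all 16 alternatives, from -0.86 to -0.66.

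By the unpaired t-test 10864 probes were called, 5661 lower and 5203 higher. At an adjusted p under 0.05 and at least 2-fold, 4783 were called, 2405 lower and 2378 higher, and 7 core complex probes were lower. With 1 array left out at a time, which takes the spread of its group from the other one, 14952 to 16205 probes were called. With the replicate number as a block 17665 probes were called, and it changed no call among the core complex probes or PAK1. The deviations of arrays sharing a replicate number had a correlation of 0.01 over 26303 probes, which gives no pairing. Signal over background limits FAAP24, FANCA probe 2 and FANCB in PAK1 shRNA cells.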
